A study of Homo sapiens with 12 samples.

Results

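The genes described here encode the splicing factors and spliceosome proteins of 6 families: the SR proteins (SRSF), the small nuclear ribonucleoprotein polypeptides (SNRP), the subunits of splicing factor 3A and 3B (SF3), the pre-mRNA processing factors (PRPF), the heterogeneous nuclear ribonucleoproteins (HNRNP) and the Sm-like proteins (LSM). They were chosen by gene symbol alone, among probe sets that the array annotation ties to exactly 1 symbol, and the probe set with the highest mean over the 12 arrays stood for each gene. The rule gave 76 of the 19775 genes with such a probe set, after 1 pseudogene was left out. Of the 76, 74 encode proteins and 2 are long non-coding RNAs named after a neighbouring HNRNP or SNRP gene, which are described apart. A filter on dim probe sets kept 72 of the 74 protein-coding genes: 9 SRSF, 11 SNRP, 9 SF3, 11 PRPF, 19 HNRNP and 13 LSM genes. SNRPN and SRSF12 were below it, with means of 3.10 and 3.35 log2. Genes of these families read only by probe sets of several symbols, SRSF2 and SRSF9 among them, were not analysed here.

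Splicing removes introns from pre-mRNA in the spliceosome, which is assembled from small nuclear RNAs wrapped in proteins (snRNPs). The U1 snRNP marks the start of an intron and the U2 snRNP its branch point, after which the U4/U6.U5 tri-snRNP joins and the catalytic centre forms. A ring of Sm proteins sits on most spliceosomal snRNAs and a related ring of LSM proteins on U6. SR proteins mostly promote the use of nearby exons, hnRNP proteins often oppose it, and many of these genes tune their own mRNAs through alternative exons that lead to decay. YAP and TAZ are transcriptional co-activators that act through TEAD factors and promote growth and division in many tumour cells.

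The arrays measured total RNA of MDA-MB-231, a human line of triple-negative breast cancer cells, after transfection of small interfering RNA (siRNA). One group received siYAP/TAZ mix 2 and another siYAP/TAZ mix 1, each aimed at YAP and TAZ together, so the parts of the 2 genes cannot be told apart; the third received control siRNA. Every group had 33 nM siRNA on day 2, fresh medium on day 3 and harvest on day 4, and 4 biological replicates, A to D, handled in parallel. All values are log2 expression levels on Affymetrix U133 Plus 2.0 arrays, where a difference of 1 is a change by a factor of 2, and the number of arrays limits the precision. Both target mRNAs were low after each mix: YAP1 was at 11.9% of control with mix 2 and 12.4% with mix 1, and WWTR1, the TAZ gene, at 18.3% with mix 2 and 19.8% with mix 1. Of 5 mesenchymal markers of the line, VIM was at 14.37 log2 with mix 2, 14.40 log2 with mix 1 and 14.29 log2 with control siRNA, FN1 rose and AXL and CD44 fell with both mixes, and SPARC was below the filter. Of 6 epithelial and hormone receptor markers, CDH1 and PGR were below the filter; among the other 4, 2 rose and 0 fell with mix 2 (differences from -0.13 to 0.93 log2), and 0 rose and 1 fell with mix 1 (from -0.38 to 0.10 log2).

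Levels of splicing genes were mostly lower after both mixes (limma, Benjamini-Hochberg adjusted p below 0.05 over 13225 genes). With mix 2, 56 of the 72 tested genes fell, 4 rose and 12 did not pass the test. That is 77.8% lower, where 31.9% of all tested genes were lower and 36.7% higher. With mix 1, 57 fell, 6 rose and 9 did not pass, so 79.2% were lower, beside 32.3% lower and 34.8% higher among all tested genes. A drop of at least 1.5-fold was called for 32 of the 72 with mix 2 (44.4%, against 17.5% of all tested genes) and for 27 with mix 1 (37.5%, against 16.8%). No splicing gene was called at least 1.5-fold higher with either mix, where the shares of all tested genes were 19.1% with mix 2 and 17.9% with mix 1. The arrays of the 2 groups did not overlap for 60 of the 72 with each mix, where this held for 64.8% of all tested genes with mix 2 and 63.3% with mix 1. The median difference over the 72 was -0.48 log2 with mix 2 and -0.45 log2 with mix 1, and over all tested genes 0.03 log2 with mix 2 and 0.005 log2 with mix 1. The 2 comparisons share their 4 control arrays, and less RNA of a gene per cell cannot be told apart from fewer cells that make it.

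The families differed in their medians. The SNRP genes had the lowest median with mix 1 (-0.81 log2) and a median of -0.87 log2 with mix 2. All 11 fell with each mix, beside 31.9% of all tested genes with mix 2 and 32.3% with mix 1. The LSM median was -0.91 log2 with mix 2 and -0.59 log2 with mix 1. The PRPF median was -0.46 log2 with mix 2 and -0.48 log2 with mix 1. The HNRNP median was -0.37 log2 with mix 2 and -0.32 log2 with mix 1, and the SF3 median -0.41 log2 with mix 2 and -0.27 log2 with mix 1. The SRSF median was -0.13 log2 with mix 2 and -0.28 log2 with mix 1. Without probe sets ending in _s_at or _x_at, which can bind related transcripts, the mix 2 median was -0.52 log2 for SRSF and -0.47 log2 for SF3, so the order of the families with mix 2 depends on the probe sets read. Of the 9 SRSF genes, 2 rose with mix 2 (22.2%, beside 36.7% of all tested genes) and 3 with mix 1 (33.3%, beside 34.8%).

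**Figure D1:**
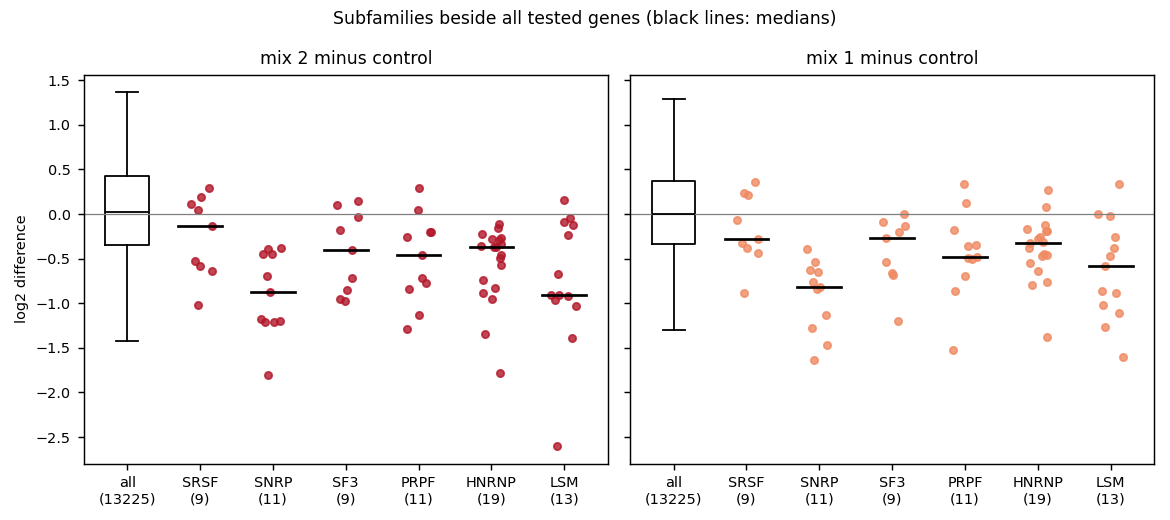
Log2 difference from control siRNA of each tested splicing gene by family, for mix 2 (left panel) and mix 1 (right panel). The box plot at the left of each panel shows all 13225 tested genes. Its box spans the quartiles and its whiskers a wider range of these genes. Black lines are medians. Every SNRP gene lies below 0 in both panels, and the SRSF genes spread to both sides of it.

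The Sm proteins form the ring at the core of the U1, U2, U4 and U5 snRNPs. All 7 tested Sm genes fell with each mix, with a median difference of -0.87 log2 (mix 2) and -0.81 log2 (mix 1), and all 4 arrays of each mix lay below the 4 control arrays. Among all tested genes, 31.9% fell with mix 2 and 32.3% with mix 1. The arrays did not overlap, in either direction, for 64.8% of them with mix 2 and 63.3% with mix 1. SNRPD1 moved farthest. Its level was 10.62, 10.41, 10.60 and 10.43 log2 with mix 2, 10.84, 10.66, 10.55 and 10.66 log2 with mix 1, and 12.34, 12.39, 12.28 and 12.26 log2 with control siRNA. The knockdown arrays were all more than 1 log2 unit under every control array, and the differences were -1.80 ± 0.07 (SE; adjusted p = 1.7e-11) with mix 2 and -1.64 ± 0.07 (adjusted p = 5.61e-11) with mix 1. Its second probe set gave -1.37 log2 with mix 2 and -1.21 log2 with mix 1. SNRPF, another subunit of the ring, was at 10.96, 10.94, 10.98 and 10.91 log2 with mix 2 and 10.91, 10.83, 10.87 and 10.92 log2 with mix 1, against 12.17, 12.23, 12.11 and 12.14 log2 with control siRNA. Its knockdown groups overlapped each other and neither touched the control, and its differences were -1.22 log2 with mix 2 and -1.28 log2 with mix 1. SNRPB, which makes the SmB proteins, fell to 43.2% of control with mix 2 and 56.9% with mix 1. SNRPE fell to 54.7% with mix 2 and 55.8% with mix 1, and SNRPG to 61.6% with mix 2 and 58.9% with mix 1. The smallest drops of the ring were those of SNRPD2 (73.1% with mix 2, 63.8% with mix 1) and SNRPD3 (73.5% with mix 2, 64.8% with mix 1).

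The 300 bases around the start of SNRPF (250 before it, 50 after it, RefSeq, GRCh38.p14) are shown. Among the SNRP genes with a window that fell at least 2-fold with each mix, it had the lowest mean difference. No window was matched to SNRPD1. The SNRPF window holds 2 copies of CCAAT, a common promoter box, 75 and 50 bases before the start (capitals). It lies at chr12:95858702-95859001 on the plus strand.
SNRPF: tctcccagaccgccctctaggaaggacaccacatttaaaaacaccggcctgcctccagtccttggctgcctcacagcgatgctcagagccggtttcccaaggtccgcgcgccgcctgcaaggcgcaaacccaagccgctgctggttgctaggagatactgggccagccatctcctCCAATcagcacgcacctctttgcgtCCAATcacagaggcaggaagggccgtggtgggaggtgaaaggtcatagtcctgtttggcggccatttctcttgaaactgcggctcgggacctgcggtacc

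The other 4 SNRP genes belong to the U1 or the U2 snRNP and behaved less alike. SNRPC, the U1 protein that contacts the paired start of the intron, was at 11.79, 11.83, 11.74 and 11.68 log2 with mix 2, at 10.71, 10.64, 10.68 and 10.67 log2 with mix 1 and at 12.14, 12.17, 12.10 and 12.15 log2 with control siRNA. The 3 groups were fully apart, with mix 1 the lowest: the difference from control was -0.38 ± 0.05 log2 (SE; adjusted p = 8.99e-06) with mix 2 and -1.47 ± 0.05 log2 (adjusted p = 5.69e-12) with mix 1. SNRPA, the U1 protein that binds a stem-loop of U1 RNA, had the opposite order. Its level was 9.29, 9.29, 9.29 and 9.02 log2 with mix 2, 9.98, 10.05, 10.05 and 9.93 log2 with mix 1 and 10.49, 10.50, 10.33 and 10.27 log2 with control siRNA. Mix 2 was lowest here, at 44.3% of control, against 76.1% with mix 1. The U2 protein SNRPA1 fell to 43.5% with mix 2 and 45.7% with mix 1, and its partner SNRPB2 to 75.9% with mix 2 and 68.8% with mix 1.

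The LSM proteins 2 to 8 bind the 3' end of U6 RNA, and LSM1 replaces LSM8 in the cytoplasmic ring that promotes decapping of mRNA. Of these 8 genes, 6 fell and 1 rose with mix 2 and 7 fell with mix 1. Of all tested genes, 31.9% fell and 36.7% rose with mix 2, and 32.3% fell and 34.8% rose with mix 1. LSM3, shared by both rings, showed the lowest difference of all the splicing genes. It was at 9.45, 9.43, 9.42 and 8.95 log2 with mix 2, at 10.92, 10.79, 10.99 and 10.89 log2 with mix 1 and at 11.92, 11.95, 11.92 and 11.86 log2 with control siRNA. The 3 groups did not touch, and replicate D was the lowest of the mix 2 arrays. The difference was -2.60 ± 0.10 log2 (SE; adjusted p = 7.16e-12), or 16.5% of control, with mix 2 and -1.02 ± 0.10 log2 (adjusted p = 2.41e-07) with mix 1; without mix 2 replicate D the first was -2.48 log2. LSM6 had the reverse order, with 10.08, 10.09, 10.18 and 9.99 log2 with mix 2, 9.69, 9.41, 9.51 and 9.44 log2 with mix 1 and 11.14, 11.19, 11.09 and 11.05 log2 with control siRNA. It fell to 48.9% of control with mix 2 and 32.9% with mix 1. LSM5 fell to 38.1% with mix 2 and 46.3% with mix 1, LSM2 to 53.4% with mix 2 and 41.5% with mix 1, and LSM7 to 51.4% with mix 2 and 54.8% with mix 1. LSM4 fell less, to 85.0% with mix 2 and 76.6% with mix 1.

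LSM8 and LSM1 are the proteins that set the rings apart. LSM8, of the nuclear ring, averaged 10.46 ± 0.19 log2 with mix 2, 10.09 ± 0.09 log2 with mix 1 and 10.55 ± 0.02 log2 with control siRNA (SD, n = 4 each), and only the mix 1 drop passed. Its 3 dimmer probe sets disagreed in direction, from -0.24 to 0.42 log2 with mix 2 and from -0.53 to 0.29 log2 with mix 1. LSM1, of the cytoplasmic ring, rose by 0.16 log2 with mix 2 (adjusted p = 0.0149) and differed by -0.03 log2 with mix 1 (adjusted p = 0.706).

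The window of LSM3 is printed because this gene showed the lowest difference. It lies at chr3:14178567-14178866 on the plus strand (RefSeq, GRCh38.p14), and the capitals mark the reverse complement of TTTNNCGC, letters of the kind E2F factors bind, 18 bases after the start.
LSM3: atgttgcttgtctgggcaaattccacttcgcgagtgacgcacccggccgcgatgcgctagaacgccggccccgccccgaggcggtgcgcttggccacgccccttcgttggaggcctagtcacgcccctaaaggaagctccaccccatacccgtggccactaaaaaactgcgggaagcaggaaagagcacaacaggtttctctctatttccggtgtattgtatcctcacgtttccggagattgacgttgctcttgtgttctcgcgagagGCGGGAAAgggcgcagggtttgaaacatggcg

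LSM10 and LSM11 replace 2 Sm proteins in the U7 snRNP, which processes histone pre-mRNA. LSM11 was at 7.67, 7.68, 7.68 and 7.53 log2 with mix 2, at 8.58, 8.58, 8.53 and 8.52 log2 with mix 1 and at 8.58, 8.60, 8.50 and 8.52 log2 with control siRNA. Mix 2 lay apart, while mix 1 and control overlapped. The differences were -0.91 ± 0.05 log2 (SE; adjusted p = 1.12e-09) with mix 2 and 0.003 ± 0.05 log2 (adjusted p = 0.972) with mix 1. Its 2 other probe sets both fell with mix 2, with differences of -0.81 and -0.88 log2, and 1 of them also fell with mix 1 (-0.80 log2). LSM10 fell with both, to 62.7% of control with mix 2 and 66.7% with mix 1.

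Among LSM proteins outside these rings, LSM12 was at 9.02, 9.0, 8.99 and 8.85 log2 with mix 2, at 9.48, 9.66, 9.88 and 9.46 log2 with mix 1 and at 9.90, 9.95, 9.86 and 9.81 log2 with control siRNA, where only the mix 2 arrays lay clear of control. It fell with both mixes, to 53.0% of control with mix 2 and 83.5% with mix 1 (adjusted p = 0.0136). LSM14A, a protein of cytoplasmic mRNA granules, was at 10.74, 10.72, 10.71 and 10.67 log2 with mix 2, at 9.92, 9.79, 9.74 and 10.00 log2 with mix 1 and at 10.72, 10.76, 10.70 and 10.82 log2 with control siRNA. On this probe set mix 2 overlapped control and mix 1 was lower by -0.89 log2. Its other probe sets read differently: 1 gave -0.86 log2 with mix 2 and -0.58 log2 with mix 1, and another -0.47 log2 with each. LSM14B rose with mix 1 (0.34 log2, adjusted p = 0.00178), a call lost when all its probe sets were averaged, and was at -0.13 log2 with mix 2 (adjusted p = 0.19).

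SF3A and SF3B are the parts of the U2 snRNP that hold the branch point. The 3 SF3A genes fell with both mixes, beside 31.9% of all tested genes with mix 2 and 32.3% with mix 1. SF3A3 was at 9.47, 9.48, 9.53 and 9.25 log2 with mix 2, at 9.65, 9.74, 9.97 and 9.62 log2 with mix 1 and at 10.43, 10.57, 10.40 and 10.24 log2 with control siRNA, and both mixes lay below every control array. It fell to 50.8% of control with mix 2 and 63.1% with mix 1. SF3A2 fell to 51.8% with mix 2 and 69.0% with mix 1, and SF3A1 to 75.5% with mix 2 and 87.2% with mix 1; the SF3A1 call with mix 1 (adjusted p = 0.0393) was lost with no filter and when any of control B, control C, mix 1 A, mix 1 B or mix 1 D was left out.

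The SF3B genes split. SF3B3, a large scaffold subunit, was at 9.69, 9.73, 9.69 and 9.40 log2 with mix 2, at 9.19, 9.32, 9.12 and 8.98 log2 with mix 1 and at 10.43, 10.42, 10.30 and 10.24 log2 with control siRNA. It fell to 60.7% of control with mix 2 and 43.7% with mix 1. SF3B4 fell to 55.3% with mix 2 and 62.1% with mix 1, and SF3B5, a small subunit, to 88.1% with mix 2 and 82.8% with mix 1. SF3B1, the subunit that embraces the branch helix and is often mutated in cancer, did not pass against control: 12.43 ± 0.09 log2 with mix 2, 12.15 ± 0.11 log2 with mix 1 and 12.28 ± 0.06 log2 with control siRNA (SD, n = 4 each). Another SF3B1 probe set fell, by 1.05 log2 with mix 2 and by 0.75 log2 with mix 1, and the other 3 were between -0.12 and 0.36 log2, of which 1 passed as higher with mix 2 (0.19 log2). SF3B2 and SF3B6 did not pass either, with differences between -0.10 and 0.11 log2.

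PRPF3, PRPF4 and PRPF31 are proteins of the U4/U6 part of the tri-snRNP. PRPF4 was at 9.73, 9.83, 9.71 and 9.57 log2 with mix 2, at 9.47, 9.44, 9.48 and 9.53 log2 with mix 1 and at 10.99, 11.00, 11.05 and 10.97 log2 with control siRNA. Both groups were more than 1 log2 unit under control and did not overlap each other, with differences of -1.29 ± 0.06 log2 (SE; adjusted p = 6.62e-11) with mix 2 and -1.52 ± 0.06 log2 (adjusted p = 1.58e-11) with mix 1. The second PRPF4 probe set gave -1.25 log2 with mix 2 and -1.51 log2 with mix 1. PRPF3, its binding partner, fell to 56.0% of control with mix 2 and 54.9% with mix 1, and PRPF31 to 72.6% with mix 2 and 78.2% with mix 1. PRPF8, which cradles the catalytic centre, fell to 83.9% with mix 2 and 88.1% with mix 1. Its mix 1 call (adjusted p = 0.0409) was lost without any 1 of the 4 control arrays, mix 1 A, mix 1 D or mix 2 A. The same call was lost with no filter, with quantile normalization and in a fit of the 2 groups alone. PRPF6, a bridge within the tri-snRNP, rose with mix 1 by 0.34 log2 and was at 0.05 log2 with mix 2 (adjusted p = 0.625).

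PRPF19, a ubiquitin ligase of the activated spliceosome, was at 9.15, 9.14, 9.07 and 9.07 log2 with mix 2, at 9.52, 9.52, 9.64 and 9.50 log2 with mix 1 and at 10.28, 10.33, 10.20 and 10.16 log2 with control siRNA. The 3 groups were apart and mix 2 was lowest, at 45.5% of control against 61.7% with mix 1. PRPF38A, needed for activation, fell to 58.5% with mix 2 and 70.5% with mix 1, and its relative PRPF38B to 60.7% with mix 2 and 70.8% with mix 1. PRPF18, a factor of the second catalytic step, fell to 86.8% with mix 2 and 71.6% with mix 1, while its other probe set rose by 0.31 log2 with mix 2 and 0.30 log2 with mix 1. PRPF39, whose yeast counterpart is a U1 snRNP protein, fell with mix 1 to 78.6%, and was at 87.2% with mix 2 (adjusted p = 0.0683). PRPF40B, also a relative of a yeast U1 protein, was at 0.29 log2 with mix 2 (adjusted p = 0.0496) and 0.13 log2 with mix 1 (adjusted p = 0.398). Its groups overlapped. The mix 2 call was lost without any 1 of control A, C or D, mix 1 B or D, or mix 2 B, C or D. This call was also lost with no filter, with centred arrays, with quantile normalization and without probe sets ending in _s_at or _x_at.

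Of 19 HNRNP genes, 18 fell with mix 2 (94.7%, beside 31.9% of all tested genes). With mix 1, 16 fell and 1 rose (84.2% and 5.26%, beside 32.3% and 34.8% of all tested genes). HNRNPAB, a binder of RNA and single-stranded DNA, moved farthest. It was at 11.30, 11.44, 11.38 and 11.17 log2 with mix 2, at 11.75, 11.66, 11.69 and 11.78 log2 with mix 1 and at 13.06, 13.12, 13.07 and 13.15 log2 with control siRNA. The 3 groups were apart, with differences of -1.78 ± 0.06 log2 (SE; adjusted p = 4.47e-12) with mix 2 and -1.38 ± 0.06 log2 (adjusted p = 7.93e-11) with mix 1. HNRNPA3 was at 10.00, 10.06, 9.94 and 9.96 log2 with mix 2, at 10.59, 10.54, 10.47 and 10.55 log2 with mix 1 and at 11.37, 11.33, 11.31 and 11.34 log2 with control siRNA. It also took mix 2 lowest, at 39.3% of control against 57.4% with mix 1. HNRNPD, which binds AU-rich elements of unstable mRNAs, fell to 51.5% with mix 2 and 64.2% with mix 1, although 1 of its 5 other probe sets rose with mix 1 (0.33 log2).

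HNRNPAB is printed as the HNRNP gene with the lowest differences. Its window lies at chr5:178204283-178204582 on the plus strand (RefSeq, GRCh38.p14), and the capitals mark CCAAT, 118 and 75 bases before the start.
HNRNPAB: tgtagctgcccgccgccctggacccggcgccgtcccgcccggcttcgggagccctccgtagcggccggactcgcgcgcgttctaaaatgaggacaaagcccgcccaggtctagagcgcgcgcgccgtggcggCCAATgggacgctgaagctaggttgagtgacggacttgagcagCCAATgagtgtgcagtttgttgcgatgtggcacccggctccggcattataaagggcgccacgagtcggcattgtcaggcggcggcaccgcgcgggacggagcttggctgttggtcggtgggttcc

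HNRNPL, a binder of CA repeats, was at 10.34, 10.40, 10.23 and 10.31 log2 with mix 2, at 10.92, 11.06, 10.79 and 10.76 log2 with mix 1 and at 11.31, 11.41, 11.12 and 10.97 log2 with control siRNA. Mix 2 lay apart from both, and mix 1 overlapped control. It fell with both mixes, by 0.88 log2 with mix 2 and by 0.32 log2 with mix 1 (adjusted p = 0.00721). The mRNAs of several proteins known for their abundance in nuclei changed by smaller amounts on the probe sets used. HNRNPA2B1 fell to 77.4% of control with mix 2 and 83.7% with mix 1, and HNRNPK to 81.5% with mix 2 and 91.9% with mix 1. HNRNPU fell to 83.1% with mix 2 and 88.0% with mix 1, and HNRNPC to 82.5% with mix 2 and 82.4% with mix 1. HNRNPA1 fell to 67.1% with mix 2 and 72.8% with mix 1. Other probe sets of HNRNPU ran from -1.30 to -0.14 log2 with mix 2 and from -0.64 to 0.055 log2 with mix 1. Those of HNRNPC ran from -0.78 to 0.66 log2 with mix 2 and from -0.54 to 0.19 log2 with mix 1. Those of HNRNPA1 were at -0.61 and -0.89 log2 with mix 2 and at -0.80 and -0.77 log2 with mix 1. HNRNPA0, HNRNPM, HNRNPH3, HNRNPDL, HNRNPF, HNRNPR and HNRNPUL1 also fell with both, with differences from -0.83 to -0.16 log2 with mix 2 and from -0.76 to -0.17 log2 with mix 1. The mix 1 calls of HNRNPK and HNRNPR were lost on leaving out any of several arrays, for HNRNPK control B, C or D or mix 1 A, B or D, and for HNRNPR control A, C or D, mix 1 A, C or D or mix 2 A. The mix 2 call of HNRNPF was lost without control C, control D or mix 2 D, and with quantile normalization. The mix 1 calls of HNRNPK and HNRNPR were also lost with no filter, quantile normalization or the mean of all probe sets. That of HNRNPR was lost without probe sets ending in _s_at or _x_at as well. HNRNPH1, which binds runs of G, fell with mix 2 (-0.49 log2) and was at -0.20 log2 with mix 1 (adjusted p = 0.108). HNRNPLL did not pass with either on the probe set used. Another of its probe sets fell with mix 2 (-0.40 log2) and rose with mix 1 (0.44 log2). A further one fell with mix 2 (-0.45 log2) and was at 0.01 log2 with mix 1.

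HNRNPUL2, a relative of the nuclear scaffold protein HNRNPU, was the 1 splicing gene that passed in opposite directions on the probe set used for each gene. It was at 10.18, 10.12, 10.09 and 10.06 log2 with mix 2, at 10.67, 10.69, 10.81 and 10.69 log2 with mix 1 and at 10.46, 10.46, 10.47 and 10.41 log2 with control siRNA. All 4 mix 2 arrays lay below and all 4 mix 1 arrays above the control arrays, with differences of -0.34 ± 0.05 log2 (SE; adjusted p = 4.03e-05) for mix 2 and 0.27 ± 0.05 log2 (adjusted p = 0.000393) for mix 1. Its other probe set fell with both, by 0.24 log2 with mix 2 and 0.19 log2 with mix 1, and the mix 1 rise did not pass when the probe sets were averaged.

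**Figure D2:**
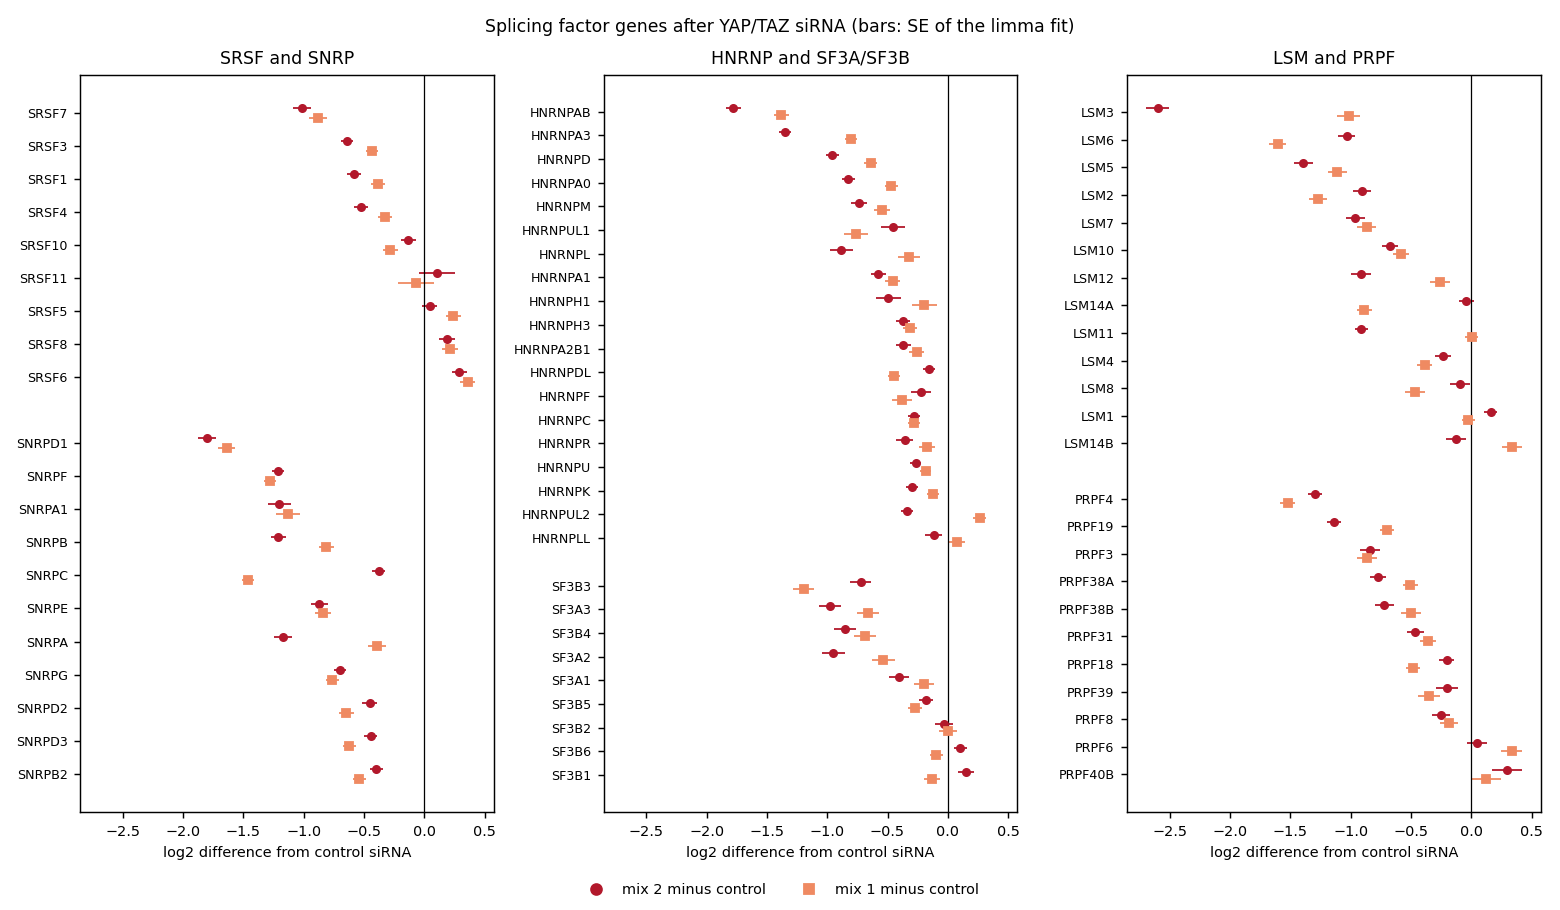
Log2 difference from control siRNA of the 72 tested splicing genes, mix 2 as dark circles above mix 1 as light squares in each row; bars are the standard errors of the limma fit. Most points lie left of 0, LSM3 with mix 2 is farthest left at -2.60, and SRSF6 and SRSF8 lie right of 0 with both mixes.

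The SR proteins carry serine and arginine repeats and bind exonic enhancers. SRSF7, which also takes part in mRNA export, was at 11.51, 11.63, 11.55 and 11.33 log2 with mix 2, at 11.61, 11.51, 11.70 and 11.74 log2 with mix 1 and at 12.43, 12.50, 12.63 and 12.52 log2 with control siRNA. The mixes overlapped each other far below control, at 49.5% of it with mix 2 and 54.3% with mix 1. SRSF3, the smallest classical SR protein, fell to 64.1% of control with mix 2 and 74.1% with mix 1. SRSF1, which also acts in translation and is a known oncoprotein, was at 12.46, 12.48, 12.38 and 12.33 log2 with mix 2 and 12.61, 12.51, 12.62 and 12.71 log2 with mix 1, against 13.01, 12.99, 12.99 and 12.99 log2 with control siRNA. It fell to 66.8% with mix 2 and 76.7% with mix 1. SRSF4 fell to 69.6% with mix 2 and 79.6% with mix 1.

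In the other direction, SRSF6 was at 11.61, 11.69, 11.58 and 11.47 log2 with mix 2, at 11.64, 11.79, 11.62 and 11.57 log2 with mix 1 and at 11.32, 11.27, 11.33 and 11.27 log2 with control siRNA. Both mixes lay above every control array, by 0.29 ± 0.06 log2 (SE; adjusted p = 0.000787) with mix 2 and 0.36 ± 0.06 log2 (adjusted p = 0.000135) with mix 1. SRSF8 rose by 0.19 log2 with mix 2 (adjusted p = 0.0159) and 0.21 log2 with mix 1 (adjusted p = 0.00786); the mix 2 call was lost when arrays were centred on their medians. SRSF5 rose by 0.24 log2 with mix 1 and was at 0.04 log2 with mix 2 (adjusted p = 0.561). SRSF10 fell by 0.28 log2 with mix 1 and was at -0.13 log2 with mix 2 (adjusted p = 0.0678) on the probe set used. Its other probe sets past the filter all passed as lower with mix 2, with differences from -0.83 to -0.32 log2. With mix 1 their differences ran from -0.31 to -0.11 log2, and only some passed. SRSF11 passed with neither on the probe set used, with SDs of 0.23 log2 (mix 2), 0.33 log2 (mix 1) and 0.16 log2 (control). Another of its probe sets rose with both mixes, by 0.28 log2 with mix 2 and 0.41 log2 with mix 1. A further one rose with mix 1 (0.30 log2, adjusted p = 0.0484) and did not pass with mix 2 (0.135 log2).

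Probe sets of 1 SRSF gene often differed, more than the spread between replicates. The second SRSF6 probe set fell by 0.67 log2 with mix 2 (adjusted p = 1.46e-06) and by 0.69 log2 with mix 1 (adjusted p = 1.138e-06), opposite to the one used, in the same fit over all 24650 probe sets past the filter. SRSF1 had 7 probe sets past the filter: 4 fell with each mix, the lowest at -1.59 log2 with mix 2, and 2 rose with each, by 0.64 and 0.44 log2 with mix 2 and 0.51 and 0.68 log2 with mix 1. SRSF3 had 5, of which 4 fell with each mix and 1 rose with mix 1 (0.31 log2). SRSF4 had 3: with mix 2 all were below 0, while with mix 1 the 2 dimmer ones rose, by 0.31 log2 (adjusted p = 0.0391) and 0.24 log2 (adjusted p = 0.0239), and its mix 1 call was lost with the mean of all probe sets. The 4 SRSF7 probe sets were all below 0, from -1.02 to -0.09 log2 with mix 2 and from -1.60 to -0.32 log2 with mix 1. Probe sets can read different transcripts of a gene, and which of these transcripts changed was not tested. Over the 6 families, 38 genes called with mix 2 had another probe set past the filter, of which another passed in the opposite direction for 4; with mix 1 this held for 8 of 42. A probe set whose name ends in _s_at or _x_at can bind related transcripts, and 41 of the 72 genes were read by such a set.

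**Figure D3:**
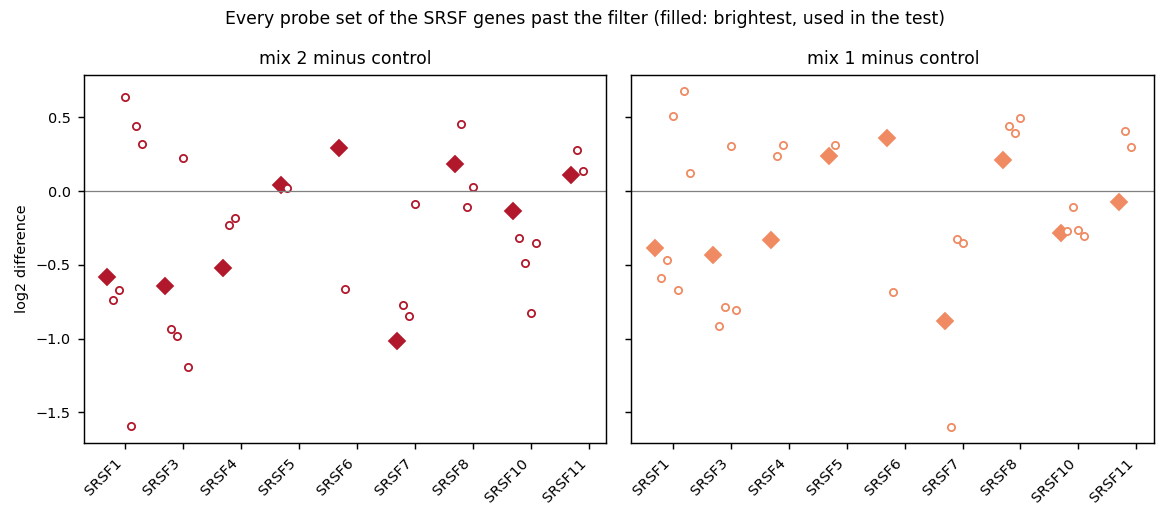
Log2 difference from control siRNA of every probe set past the filter for the 9 SRSF genes, for mix 2 (left panel) and mix 1 (right panel); the filled diamond is the brightest probe set, used in the test, and open circles are the others. SRSF1, SRSF3 and SRSF6 have points on both sides of 0 in both panels.

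The 2 mixes differed for many of these genes. Mix 2 minus mix 1, 29 of the 72 were lower and 16 higher (40.3% and 22.2%), beside 25.0% lower and 28.7% higher among all tested genes, with a median of -0.09 log2 over the 72 and 0.03 log2 over all. At least 1.5-fold, 5 were lower and 2 higher, where the shares of all tested genes were 9.23% and 8.75%. The 5 were LSM3 (-1.59 log2, adjusted p = 5.43e-09), LSM11 (-0.91), SNRPA (-0.78), LSM12 (-0.66) and HNRNPUL2 (-0.60), and the 2 were SNRPC (1.09 log2, adjusted p = 3.82e-10) and LSM14A (0.85 log2). Of these 7 calls, that of LSM12 was lost without probe sets ending in _s_at or _x_at, and the others held under each alternative that gave a value. The 2 groups did not overlap for 37 of the 72, where 46.1% of all tested genes did not. Of the HNRNP genes, 11 were lower and 2 higher with mix 2. The lower calls of HNRNPD, HNRNPH1, HNRNPK, HNRNPLL, HNRNPM and HNRNPR were each lost under at least 1 alternative. So were the 2 higher calls, those of HNRNPDL and HNRNPUL1. The 3 SF3A genes were lower, and of the 6 SF3B genes 3 were higher (SF3B1, SF3B3, SF3B6) and none lower. Of these, the SF3A1 call (adjusted p = 0.0391) was lost with no filter, in a fit of these 2 groups alone, and without mix 1 A, B or C or mix 2 C or D. The SF3B1 and SF3B3 calls were lost without probe sets ending in _s_at or _x_at, where both signs turned, and the SF3B6 call with the mean of all probe sets. Among the 13 LSM genes, 5 were lower and 5 higher. Another probe set of the same gene passed in the opposite direction for 6 of the 32 called genes with a second one, LSM14A and SF3B1 among them.

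**Figure D4:**
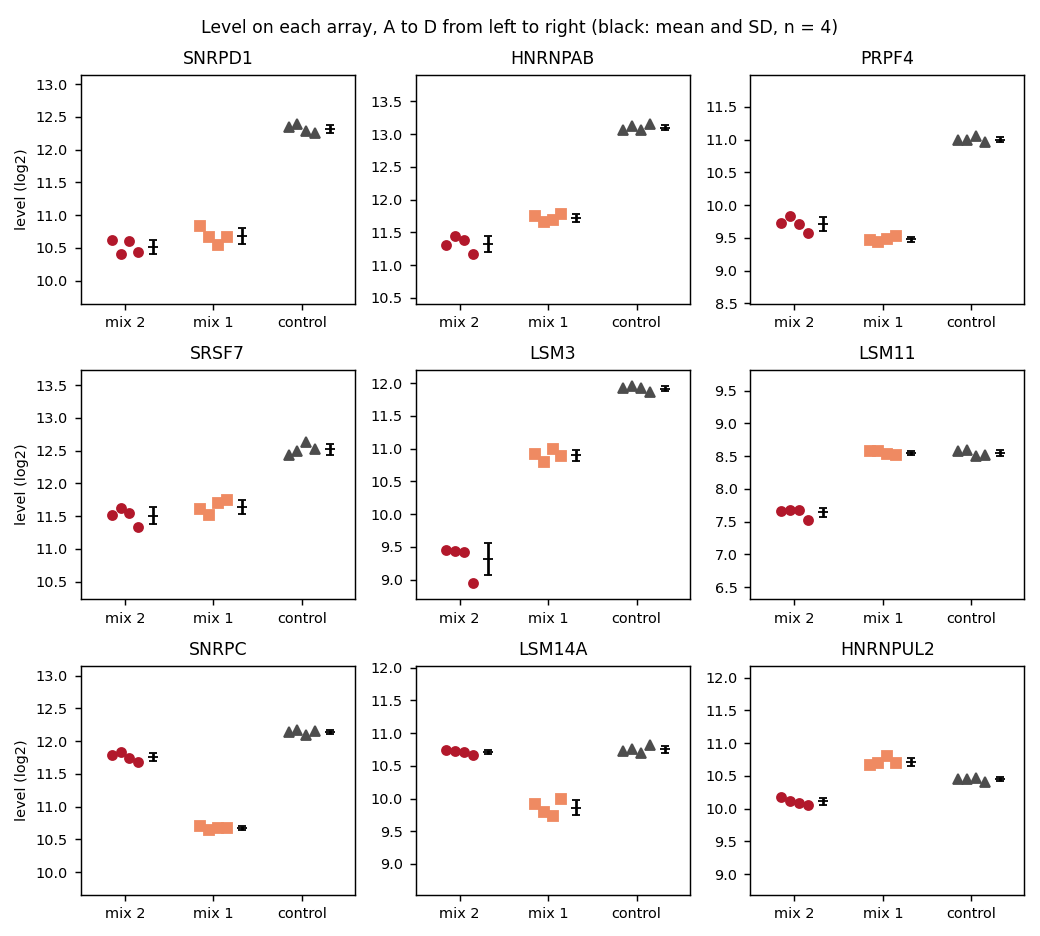
Log2 level on each of the 12 arrays for 9 splicing genes, with mix 2, mix 1 and control from left to right and replicates A to D within each group; black marks are the mean and SD (n = 4), and every panel spans the same number of log2 units. The top row and SRSF7 are low with both mixes, LSM3 and LSM11 are lowest with mix 2, SNRPC and LSM14A are lowest with mix 1, and HNRNPUL2 lies on either side of control.

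Replicate D of mix 2 tended low. It was the lowest of its 4 arrays for 46 of the 72 splicing genes (63.9%) and for 52.9% of all tested genes. Without it, 57 of the 72 were lower and 3 higher with mix 2 than with control siRNA, with a median of -0.45 log2, and 26 were lower and 18 higher with mix 2 than with mix 1. The differences from control with mix 2 were then -2.48 log2 for LSM3, -0.87 log2 for LSM11, -1.11 log2 for SNRPA and -0.64 log2 for SF3B3. RNA quality probes did not separate the groups (exact permutation p from 0.11 to 0.83, smallest possible 0.0286). The 3' to 5' difference of GAPDH averaged 0.38 log2 with mix 2, 0.43 log2 with mix 1 and 0.39 log2 with control siRNA. That of ACTB averaged 1.53 log2 with mix 2, 1.92 log2 with mix 1 and 1.70 log2 with control siRNA. Array medians did not separate the groups either, but the normalization of the deposited values brings arrays to a common distribution. The test on array medians could therefore show little.

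Promoter windows of the same length were found for 64 of the 72 genes by gene ID, and 4 short motifs were searched on both strands. CACGTG, the E-box that MYC and related factors bind, was in 7 of the 64 (10.9%), beside 10.0% of the 10665 windows of genes past the filter. GGAATG, the core letters of TEAD sites, was in 8 (12.5%, beside 11.0%). CCAAT was in 30 (46.9%, beside 36.5%) and TTTNNCGC in 12 (18.8%, beside 10.1%). TTTNNCGC was in 7 of 48 windows of splicing genes lower with each mix (14.6%) and in 5 of the 16 others (31.2%). In the same 48 and 16 windows, CCAAT was in 24 and 6, GGAATG in 7 and 1, and CACGTG in 6 and 1. The part of these letters in the fall of the genes was not tested. Matches were counted for each motif on its own, also where 2 motifs overlap. By family, CCAAT was in 12 of 18 HNRNP windows, 6 of 9 PRPF, 5 of 10 LSM, 4 of 10 SNRP, 2 of 9 SRSF and 1 of 8 SF3. The E-box letters were in 6 of the 18 HNRNP windows and 1 of the 8 SF3 windows, and in none of the SRSF, SNRP, PRPF or LSM windows. TTTNNCGC was in 6 of 18 HNRNP windows, 3 of 10 LSM, 1 of 8 SF3, 1 of 9 SRSF, 1 of 10 SNRP and 0 of 9 PRPF.

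Genes that work with these proteins were read from lists of textbook partners. Beside them, 31.9% of all tested genes were lower and 36.7% higher with mix 2, and 32.3% lower and 34.8% higher with mix 1. Of 18 genes of snRNP assembly, the pathway in which the SMN complex loads Sm rings onto snRNA, 15 fell and 2 rose with mix 2, and 15 fell and 1 rose with mix 1. GEMIN5, which recognises snRNA for the SMN complex, fell to 28.0% of control with mix 2 and 24.7% with mix 1, and GEMIN4 to 24.8% with mix 2 and 32.7% with mix 1. GEMIN8 rose, to 148% with mix 2 and 116% with mix 1. Its probe set was dim, at 5.96 log2 with mix 2, 5.60 log2 with mix 1 and 5.39 log2 with control siRNA. The control level lay below the filter at 5.46 log2, so GEMIN8 entered the test only through the groups where it was high. Of 14 tri-snRNP partners 11 fell and 2 rose with mix 2, and 12 fell and 1 rose with mix 1. PPIH, a cyclophilin bound to PRPF4, fell to 28.0% with mix 2 and 24.4% with mix 1, and SNRNP27 to 70.2% with mix 2 and 33.0% with mix 1.

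Among 19 U1 and U2 associated factors, 15 fell and 1 rose with mix 2 and 14 fell and 3 rose with mix 1. U2AF1, which reads the end of the intron, fell to 39.8% with mix 2 and 57.2% with mix 1, and U2SURP to 47.0% with mix 2 and 45.1% with mix 1, while TIA1, a U-rich binder that helps U1, rose to 277% with mix 2 and 248% with mix 1. Of 15 exon junction and export genes 13 fell and 2 rose with mix 2 and 11 fell and 1 rose with mix 1. MAGOHB fell to 27.2% of control with mix 2 and 31.1% with mix 1 and the helicase DDX39A to 34.8% with mix 2 and 29.7% with mix 1. In the PRPF19 complex and catalytic step list, 13 of 24 fell with each mix, PPIL1 and RBM22 among them. In the same list 3 rose with mix 2 and 2 with mix 1, among them SLU7 (138.5% with mix 2, 150.5% with mix 1). The shares of all tested genes were 31.9% lower and 36.7% higher with mix 2, and 32.3% lower and 34.8% higher with mix 1.

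The remaining lists stand beside the same shares of all tested genes. Lower were 31.9% with mix 2 and 32.3% with mix 1, and higher 36.7% with mix 2 and 34.8% with mix 1. Of 36 other splicing regulators 23 fell and 7 rose with mix 2 and 19 fell and 7 rose with mix 1: MBNL3 fell to 15.6% with mix 2 and 60.3% with mix 1 and MATR3 to 23.4% with mix 2 and 43.8% with mix 1, while RBM47 rose to 230% with mix 2 and 294% with mix 1 and MBNL2 to 153% with mix 2 and 196% with mix 1. Of 8 kinases of SR proteins 3 rose and 3 fell with mix 2, and 4 rose and 1 fell with mix 1. CLK1 and CLK4 rose with both, to 131.5% (CLK1) and 148% (CLK4) with mix 2 and 166% (CLK1) and 170% (CLK4) with mix 1, and SRPK1 fell to 82.1% with mix 2 and 71.0% with mix 1. In the minor spliceosome, which removes a rare class of introns, 5 of 9 fell and 3 rose with mix 2, and 4 fell and 3 rose with mix 1, SNRNP25 falling to 36.2% with mix 2 and 47.8% with mix 1 and RNPC3 rising to 158% with mix 2 and 145% with mix 1. Of 8 decapping partners of the cytoplasmic LSM ring 3 rose and 3 fell with mix 2 and 4 rose and 2 fell with mix 1, with XRN1, the exonuclease that follows decapping, at 222% of control with mix 2 and 188% with mix 1. The shares of kinases and of decapping partners called with mix 2, and of minor spliceosome genes that rose with each mix, were near those of all tested genes. Both partners of the U7 snRNP fell, SLBP to 31.8% with mix 2 and 50.8% with mix 1 and ZNF473 to 42.3% with mix 2 and 48.4% with mix 1.

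The 2 non-coding RNAs lie divergent to splicing genes. HNRNPD-DT fell by 0.46 log2 with mix 2 (adjusted p = 0.000159) and was at -0.04 log2 with mix 1 (adjusted p = 0.731). Its probe set was dim, with a mean over the 12 arrays of 5.485 log2, just above the filter at 5.46 log2. It averaged 5.19 log2 with mix 2, 5.615 log2 with mix 1 and 5.65 log2 with control siRNA. It thus entered the test only through the groups where it was high. SNRPF-DT did not pass, at 0.01 log2 with mix 2 and -0.17 log2 with mix 1.

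All 8 markers of dividing cells fell with each mix, beside 31.9% of all tested genes with mix 2 and 32.3% with mix 1. The part of these markers in the fall of the splicing genes was not tested. Their summed level was 12.88 to 13.03 log2 with mix 2, 13.28 to 13.41 log2 with mix 1 and 14.98 to 15.03 log2 with control siRNA. MKI67 was at 13.1% of control with mix 2 and 15.9% with mix 1, and MCM2 at 9.61% with mix 2 and 17.9% with mix 1. Markers of cells that a culture could hold were read as well. The summed level of 5 endothelial markers was 8.42 to 8.62 log2 with mix 2, 8.91 to 9.10 log2 with mix 1 and 7.63 to 7.93 log2 with control siRNA, with PECAM1 rising and CDH5, KDR and TEK below the filter. For 6 fibroblast markers it was 9.26 to 9.43 log2 with mix 2, 9.57 to 9.97 log2 with mix 1 and 8.02 to 8.36 log2 with control siRNA, with COL1A1 and PDGFRB rising and COL1A2, COL3A1, DCN and LUM below the filter. For 5 leukocyte markers it was 8.06 to 8.29 log2 with mix 2, 8.08 to 8.24 log2 with mix 1 and 7.87 to 8.10 log2 with control siRNA, with CD14 rising and PTPRC below the filter. The endothelial and fibroblast sums lay above control with each mix, while the leukocyte sums overlapped control. With each mix, 1 of 2 tested endothelial markers and 1 of 4 tested leukocyte markers passed, each as higher. Of all tested genes, 36.7% were higher with mix 2 and 34.8% with mix 1, and counts this small cannot be told apart from those shares. The part of these levels in the results was not tested.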

How the data were processed

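Total RNA of MDA-MB-231 cells in 3 siRNA groups of 4 biological replicates was labelled with a 3' in vitro transcription kit, per the labels' protocols, and hybridised to 12 arrays. The table deposited by the authors holds log2 levels of 54675 probe sets; the submitters' processing notes name RMA, with no version or options. RMA fits the arrays to a common distribution, which hides any shift shared by most genes.

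GEO's platform annotation gave 1 gene symbol to 41091 probe sets that are not array controls; gene IDs and the RefSeq table of GRCh38.p14 gave current symbols for 41037 of them. A probe set was kept where its mean over the 12 arrays lay above the 40th percentile (5.46 log2), which left 24650 probe sets. Each of the 13225 genes was read by its brightest probe set.

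Differences were tested with limma 3.58.1 in R 4.3.3 (lmFit on 3 group means, default eBayes, 9 residual degrees of freedom, two-sided, Benjamini-Hochberg over all 13225 genes, threshold 0.05). The fold threshold, where used, was 1.5. The fit was tested on simulated data. RNA quality was compared with exact two-sided permutation tests. Neither labels nor file name a batch, and p-values measure the spread between cultures of 1 line handled in parallel. Samples of the same letter deviated together for mix 1 and control (r of 0.37, 0.251, 0.409 and 0.34 for A to D), less for mix 2 and control (0.119, 0.034, 0.048 and 0.212) and not throughout for mix 2 and mix 1 (0.273, -0.085, 0.202 and 0.191). Different letters of mix 1 and control gave r from -0.428 to 0.374, and mix 1 B was closer to control A (0.374) than to control B. The letters come from the labels, which do not tie them to a shared day or batch.

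The members, partner lists and rules were chosen with earlier results of these data known. Values on every array were given for up to 3 genes per family and direction that passed with both mixes, by mean difference, for those that passed in opposite directions, and for up to 6 per direction between the mixes; for some of these only percentages are printed. Partner lists name up to 2 genes per direction. Alternatives were other filters, centring, quantile normalization, the mean of all probe sets, probe sets without _s_at or _x_at, a 2-group fit, a replicate block, another eBayes and each array left out.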

Additional observations from a re-analysis of the deposited data

Results flagged for a closer look

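Single arrays that stood apart from the other 3 of their group were looked for in 96 groups of 4 arrays, and 8 were found, where chance gives about 1 in 20. Replicate D of mix 2 was the low array in 4 of them: 8.95 log2 for LSM3 (the others 9.42 to 9.45), 7.53 log2 for LSM11 (7.67 to 7.68), 9.02 log2 for SNRPA (all at 9.29) and 9.40 log2 for SF3B3 (9.69 to 9.73). Replicate C of mix 1 was high for PRPF19, at 9.64 log2 (9.50 to 9.52), and for HNRNPUL2, at 10.81 log2 (10.67 to 10.69). Replicate D of control siRNA was low for HNRNPUL2, at 10.41 log2 (10.46 to 10.47). Replicate A of control siRNA was high for SRSF1, at 13.01 log2 (all others at 12.99), in values deposited to 2 decimals.

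HNRNPUL2 differed between the mixes by -0.60 log2 (mix 2 minus mix 1; limma adjusted p = 2.29e-07), with every mix 2 array below and every mix 1 array above the control arrays.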

How the results depend on the processing

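Of the calls in the report, 52 of 60 with mix 2, 50 of 63 with mix 1 and 27 of 45 between the mixes were kept under every alternative that gave a value. The count of lower genes stayed between 43 and 59 with mix 2 and between 39 and 59 with mix 1; the lowest counts came without probe sets ending in _s_at or _x_at, which leaves fewer genes to test. The replicate block gave 57 lower and 4 higher with mix 2, 57 and 6 with mix 1 and 29 and 17 between the mixes. It added SRSF10 as lower with mix 2 than with control siRNA and as higher than with mix 1, and changed no other call. Only 12 arrays and the choice of probe set limit the precision; the cause of the changes below was not tested.

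Among genes that passed before or after the change, 16 differences turned sign without probe sets ending in _s_at or _x_at and 8 with the mean of all probe sets, and none under the other alternatives. Without probe sets ending in _s_at or _x_at, the difference from control with mix 2 became 0.05 log2 for HNRNPM, -1.05 log2 for SF3B1, 0.23 log2 for SRSF3 and -0.11 log2 for SRSF8. With mix 1 it became 0.0025 log2 for HNRNPDL, 0.048 log2 for HNRNPM, 0.12 log2 for HNRNPR, 0.41 log2 for SRSF11 and 0.31 log2 for SRSF3. Between the mixes (mix 2 minus mix 1) it became -0.45 log2 for HNRNPC, -1.38 log2 for HNRNPDL, 0.0025 log2 for HNRNPM, -0.30 log2 for SF3B1, -0.035 log2 for SF3B3, -0.57 log2 for SRSF10 and 0.83 log2 for SRSF7. With the mean of all probe sets, it became 0.047 log2 for PRPF18 and -0.19 log2 for SRSF6 with mix 2, -0.22 log2 for LSM11, 0.27 log2 for SRSF11, 0.10 log2 for SRSF4 and -0.16 log2 for SRSF6 with mix 1, and -0.013 log2 for SNRPB2 and -0.18 log2 for SRSF10 between the mixes.

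Medians and small counts moved too. Without shared probe sets, the mix 2 medians were -0.72 log2 over all tested splicing genes, -0.52 (SRSF), -0.99 (SNRP), -0.75 (PRPF), -0.78 (HNRNP) and -0.67 log2 (LSM), the mix 1 median was -0.74 log2 (SNRP), and between the mixes they were -0.19 (SRSF), 0.10 (PRPF) and -0.45 log2 (HNRNP); 2 genes were higher with mix 2, and 9 at least 1.5-fold lower between the mixes. With the mean of all probe sets, the mix 2 medians were -0.20 (SRSF), -0.30 (PRPF), -0.53 (HNRNP) and -0.76 log2 (LSM), and the mix 1 medians -0.35 over all, -0.16 (SRSF), -0.77 (SNRP), -0.28 (PRPF) and -0.43 log2 (LSM). Between the mixes they were -0.013 (SNRP), 0.051 (SF3) and -0.27 log2 (HNRNP), with 1 gene at least 1.5-fold higher and 3 lower. With no filter, the mix 2 medians were -0.045 (SRSF) and -0.79 log2 (SNRP), the mix 1 median -0.18 log2 (SRSF) and that between the mixes 0.019 log2 (SNRP). The stricter filter gave -0.59 log2 for PRPF with mix 2, and centred arrays left 2 genes higher with mix 2. Leaving out 1 array at a time gave SNRP medians from -0.83 to -0.76 log2 with mix 1, the highest of them without mix 1 replicate B. Between the mixes it gave medians from -0.18 to -0.077 log2 (SRSF), -0.077 to 0.047 log2 (SF3) and -0.12 to -0.021 log2 (LSM), the upper end of each without mix 2 replicate D.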
